A study of Sus scrofa with 6 samples.

Results

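CYP1A1 and TIPARP are 2 genes that the aryl hydrocarbon receptor switches on, and they were followed here in porcine endometrial epithelial cells with and without seminal exosomes. They are the 2 rows, of 10915 genes with values, whose gene name is CYP1A1 or TIPARP. Both were chosen by their lower values in the exosome libraries, with earlier results of these data known, so their difference between the groups is described below without a test. The cells lined porcine uteri collected at a slaughterhouse and were grown as a primary culture to passage 3. The exosome group received 10 µg per well of vesicles precipitated with a commercial reagent from the sperm-rich fraction of boar seminal fluid, for 48 h of culture. The control group was left without exosomes, per the design text, and no label states whether it received the precipitation reagent or buffer. Each group held 3 libraries. The labels name no breed, age or animal and do not say whether libraries came from separate uteri or wells, so every p below reflects scatter among these libraries, whether biological or technical.

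The aryl hydrocarbon receptor is a transcription factor that waits in the cytosol with HSP90 and other chaperones until it binds a ligand such as a dioxin, a polycyclic hydrocarbon or an indole made from tryptophan. It then enters the nucleus, pairs with ARNT and binds short elements in front of its target genes. CYP1A1 encodes a cytochrome P450 of the endoplasmic reticulum that oxidises many of these ligands, and also oestradiol. TIPARP encodes an enzyme that attaches single ADP-ribose units to proteins, the receptor among them, and lowers receptor activity. Both products therefore feed back on the receptor that induces them.

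CYP1A1 (ENSSSCG00000001906) lies at chr7:58802887-58809155 of Sscrofa11.1, a gene of 6269 bp in the RefSeq annotation, and its close relative CYP1A2 begins at base 58779529 and ends 16731 bp away from it. TIPARP (ENSSSCG00000027646) lies at chr13:96496386-96524879 and spans 28494 bp. CYP1A2 has no row in the table used here. How reads that fit both CYP1A genes were shared out is not given in the sources used here, so the CYP1A1 values are uncertain to that extent.

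The libraries had FPKM sums from 690260 to 732920, where FPKM are sequenced fragments adjusted for the length of the transcript and the size of the library, and their depth is unknown because no counts were given. Keratins and other epithelial markers were abundant in every library: 12 of 14 epithelial markers had rows, KRT7 and CDH1 had none, and their summed level ran from 14640 to 15101 FPKM in control cultures and from 12559 to 13825 after exosomes. Of 10 stromal marker symbols, of which THY1 and CD90 name the same gene, 5 had rows. Their sums were 2788 to 3042 and 2274 to 2494 FPKM, most of it CD90. For PTPRC and CD3E of leukocytes, PECAM1 and VWF of endothelium and the sperm genes PRM1, PRM2 and TNP1 no row was found by name or identifier. Other markers on these lists did. The 5 immune rows, among them CD14, CD68 and LAPTM5, summed to 15.1 to 17.0 FPKM without exosomes and 13.5 to 15.6 with them. KDR of endothelium was at 1.26 to 1.96 and 0.968 to 1.16 FPKM. ODF2 of the sperm list was at 39.4 to 41.9 FPKM in control cultures, which received no exosomes, and at 40.1 to 43.8 FPKM with them. TAGLN, the 1 smooth muscle marker of 5 with a row, was at 127 to 141 and 78.5 to 140 FPKM. The part of these marker levels in the results was not tested. In bulk RNA, fewer cells of a type and less RNA per cell cannot be told apart. Exosome replicate 2 stood apart: it was the exosome library nearest to the control mean in 42.9% of the genes tested, against 25.1% for replicate 1 and 32% for replicate 3.

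CYP1A1 was at 52.8, 80.9 and 35.4 FPKM in control replicates 1, 2 and 3, against 12.7, 5.59 and 10.7 FPKM in exosome replicates 1, 2 and 3. Every exosome library lay below every control library, and the lowest control library was still 2.79 times the highest exosome library. The means were 56.4 ± 23.0 and 9.67 ± 3.66 FPKM (SD, n = 3 per group), so the exosome mean was 17.2% of the control mean. On the log2(FPKM + 1) scale, which understates the change of low genes, the difference was -2.41 with an SE of 0.34.

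TIPARP was at 39.3, 48.2 and 42.7 FPKM in control replicates 1, 2 and 3, and at 37.1, 35.5 and 34.8 FPKM in exosome replicates 1, 2 and 3. Here too the groups did not overlap, but the gap was narrow, with the lowest control library at 1.06 times the highest exosome library. The means were 43.4 ± 4.49 and 35.8 ± 1.17 FPKM (SD, n = 3 per group), an exosome mean of 82.5% of the control mean. The log2 difference was -0.27 with an SE of 0.08. Groups lay apart with the exosome side lower in 10.4% of the 10846 genes tested. The members were chosen for this contrast, so nothing is read from their count of 2 beside that share.

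**Figure D1:**
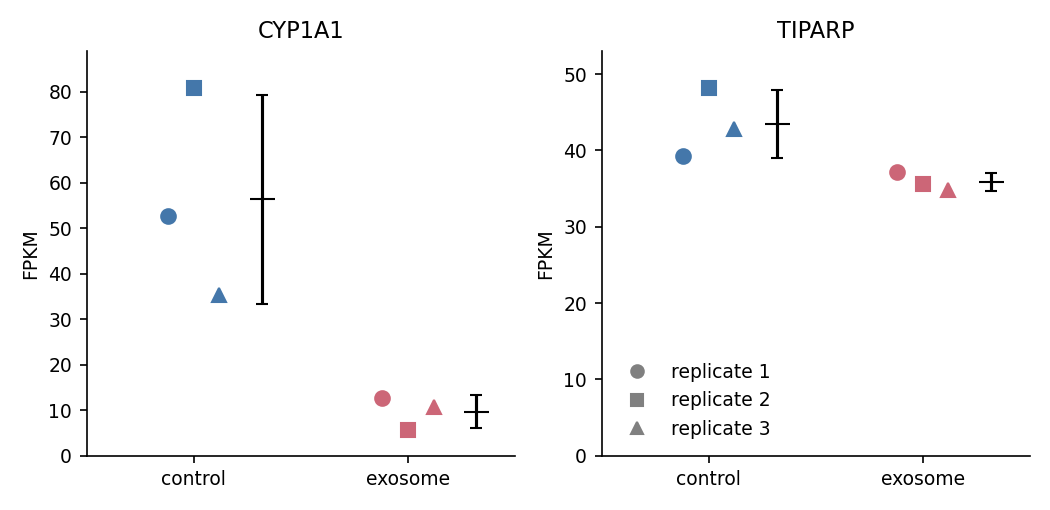
FPKM of CYP1A1 (left) and TIPARP (right) in each of the 6 libraries, by group, with a marker shape for each replicate number and, beside the points, the mean with its SD over 3 libraries. CYP1A1 runs from 35.4 to 80.9 FPKM in control cultures and from 5.59 to 12.7 with exosomes, while the TIPARP groups lie close together.

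The 2 genes held different places among all differences. CYP1A1 had the lowest log2 difference of all 10846 genes tested, and the next were FADS2, a fatty acid desaturase, at -1.35 and GNG7, a G protein subunit, at -1.30. TIPARP ranked 418 from the lowest, between CPPED1 and KRT5, each also at -0.27. In level, CYP1A1 stood at the 81.4, 87.6 and 73.6 percentiles of all genes in control replicates 1, 2 and 3 and at the 45.6, 24.3 and 40.8 percentiles in exosome replicates 1, 2 and 3, so it moved from the abundant genes to below the middle of the table. TIPARP stayed between the 73.0 and 79.5 percentiles in all 6 libraries.

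**Figure D2:**
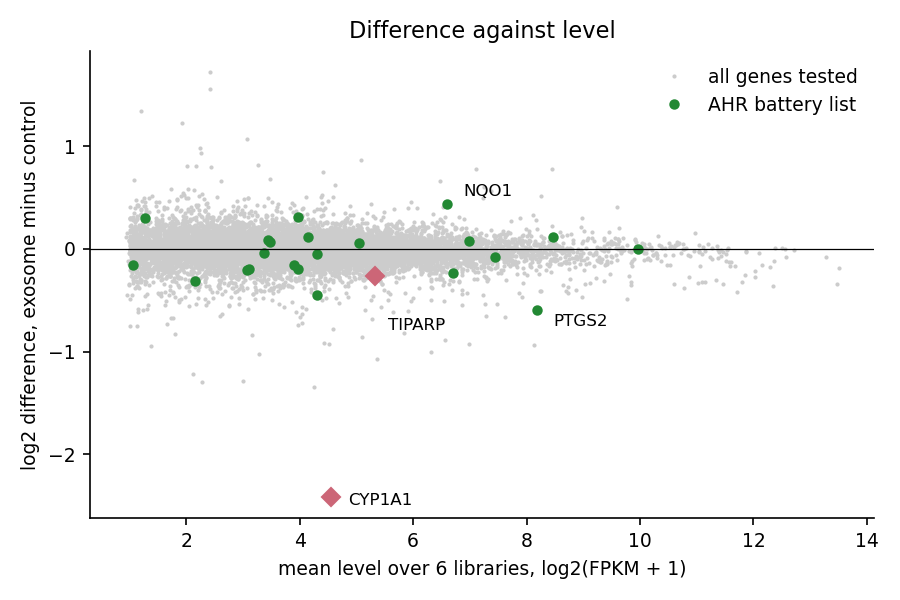
Log2 difference (exosome minus control, vertical) against the mean level over the 6 libraries (log2(FPKM + 1), horizontal) for all genes tested in grey, the fixed list of other receptor targets in green and CYP1A1 and TIPARP as red diamonds. CYP1A1, at -2.41, lies below every other gene, and TIPARP, at -0.27, lies near the edge of the main cloud.

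The spread inside the control group was the other feature of CYP1A1. Its control libraries differed 2.29-fold from lowest to highest, a coefficient of variation of 40.7%, and its exosome libraries 2.27-fold, or 37.9%. The SD of log2(FPKM + 1) over the control libraries was 0.585, larger than in 99.6% of the genes tested, and over the exosome libraries 0.556, larger than in 99.2%. Among the 2098 genes within 1.5-fold of its mean over all 6 libraries, the median control SD was 0.0577. That mean lies between its 2 group means, so these are not genes of its level in control cultures. CYP1A1 scattered far more in control cultures than most of these genes.

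TIPARP was far steadier than CYP1A1. Its control libraries differed 1.23-fold, with a coefficient of variation of 10.3%, and its exosome libraries 1.07-fold, with 3.27%. The SD of log2(FPKM + 1) over control cultures was 0.145, larger than in 84.0% of genes, and with exosomes it was 0.0457, larger than in 15.1%. Among the 1879 genes within 1.5-fold of its mean over all 6 libraries, the median control SD was 0.0562. The control SD of TIPARP was larger than in 93.3% of them, so it too scattered more in control cultures than most genes of its level. The control SD was 0.120 without control replicate 1, 0.0831 without replicate 2 and 0.204 without replicate 3, the spread being widest between replicates 1 and 2.

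**Figure D3:**
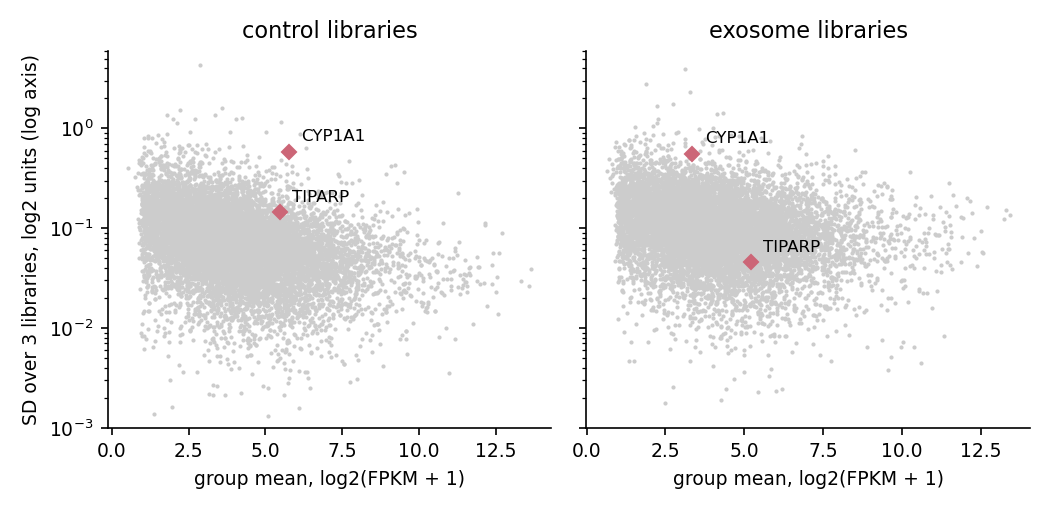
SD over the 3 libraries of a group (log2 units, log axis) against the group mean in log2(FPKM + 1), for the control (left) and exosome (right) libraries, with each gene tested in grey. CYP1A1 sits at the upper edge of both clouds, at 0.585 and 0.556, and TIPARP at 0.145 and 0.0457.

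Over the 6 libraries the 2 genes shared the highest library of each group, but not the order of the others. They also shared their split by group, for which they were chosen. Control replicate 2 was highest for both, at 80.9 FPKM of CYP1A1 and 48.2 of TIPARP. The other control libraries changed places: replicate 1 exceeded replicate 3 in CYP1A1, and replicate 3 exceeded replicate 1 in TIPARP. Among the exosome libraries replicate 1 was highest for both, the lowest was replicate 2 in CYP1A1, and the lowest was replicate 3 in TIPARP. Because the libraries fall into 2 groups that do not overlap in either gene, no correlation over all 6 is given. Taking each library's deviation from its own group mean, Pearson's r was 0.503 over the 6 libraries, a description with no p. It was -0.135 without control replicate 2, so its sign rested on that library.

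The ratio of CYP1A1 to TIPARP, both in FPKM, was 1.34, 1.68 and 0.829 in control replicates 1, 2 and 3, and 0.342, 0.157 and 0.308 in the exosome libraries. CYP1A1 was thus at about the level of TIPARP without exosomes and well below it in each library with them. The mean ratio was 1.28 ± 0.428 without and 0.269 ± 0.0982 with exosomes (SD, n = 3 per group).

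**Figure D4:**
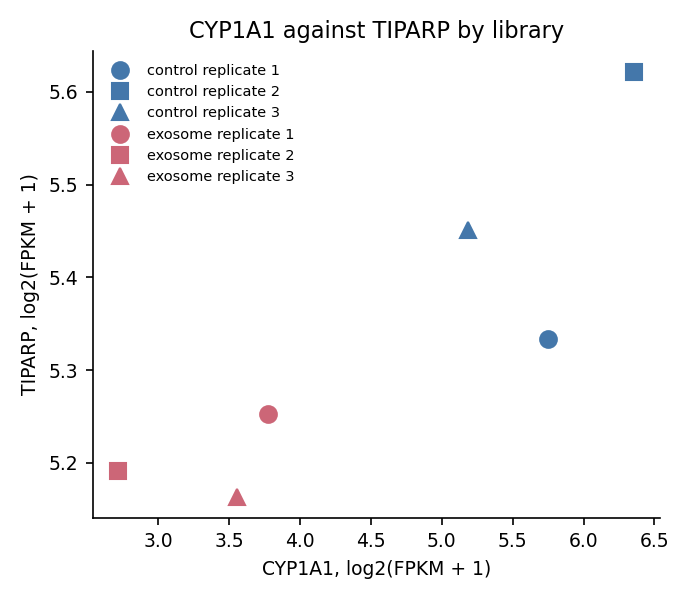
CYP1A1 (horizontal) against TIPARP (vertical), both as log2(FPKM + 1), with a point for each library, coloured by group and shaped by replicate number. Control replicate 2 is highest on both axes, the exosome libraries lie at the lower left, and within a group the points follow no single line.

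The receptor and its partners differed little between the groups. AHR itself, whose row had no symbol and was named through its identifier in the reference table, was at 6.31, 6.60 and 6.22 FPKM in control replicates 1, 2 and 3, and at 7.50, 5.36 and 7.68 in the exosome libraries. Exosome replicate 2 lay below all controls and the other exosome libraries above them. Its log2 difference was 0.08 (limma adjusted p = 0.830), and was -0.00466 without exosome replicate 3. ARNT, the partner in the nucleus, was at 21.5 ± 1.54 and 23.0 ± 1.06 FPKM (SD, n = 3 per group; limma adjusted p = 0.600). Of the list of receptor, chaperones and coactivators, 21 of 24 symbols had rows. None of the 21 passed limma's test at an adjusted p of 0.05, where 0% of all genes tested did.

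At an unadjusted limma p under 0.05 that list held 1 higher and 1 lower gene, beside 5.06% higher and 7.5% lower among all genes tested. The higher one was MYBBP1A, a nucleolar protein that binds the receptor, at 41.2 ± 2.85 FPKM without and 48.5 ± 3.62 with exosomes (limma adjusted p = 0.313). The lower one was CALCOCO1, a coactivator, at 32.2 ± 0.739 and 28.4 ± 2.70 FPKM (limma adjusted p = 0.375). HSP90AB1, the main chaperone of the receptor and listed under its older symbol HSPCB, was at 437 ± 14.8 and 463 ± 4.93 FPKM (limma adjusted p = 0.456). The groups lay apart in HSP90AB1, MYBBP1A and CALCOCO1, thus in 2 higher rows and 1 lower row of the 21. Among all genes tested they lay apart in 8.29% as higher and 10.4% as lower. The median log2 difference of the list was 0.02, against -0.00229 over all genes tested, and its sign depended on single libraries.

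Other targets of the receptor went both ways. Of 40 symbols on the list, 21 genes had rows, 22 in all because NEDD9 had 2. For the receptor repressor AHRR, the P450s CYP1A2 and CYP1B1 and the aldehyde dehydrogenase ALDH3A1, which are among the classical targets, no row was found by name or identifier. None of the 22 rows passed at an adjusted p of 0.05 in limma. Before adjustment, at p under 0.05, there were 2 higher rows and 6 lower ones, set against 5.06% and 7.5% of all genes tested. The groups lay apart in 8 rows, 3 higher and 5 lower, where all genes tested gave 8.29% and 10.4%. The median log2 difference was -0.04, against -0.00229 over all genes tested, with 9 rows higher and 13 lower. The list's median thus lay near that of all genes, while its called and separated rows made up larger shares than among all genes. The list was chosen with earlier results known, so nothing is read from these shares.

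NQO1, a quinone reductase induced both by this receptor and by NRF2, differed in direction from CYP1A1. It was at 91.5, 85.9 and 70.9 FPKM in control replicates 1, 2 and 3, and at 142, 57.3 and 172 FPKM in exosome replicates 1, 2 and 3. Exosome replicates 1 and 3 lay above all controls and replicate 2 below them, so the groups overlapped (log2 difference 0.44, limma adjusted p = 0.640). Without exosome replicate 2 NQO1 was higher by 0.91 on the log2 scale, at an adjusted p of 0.0195 in limma, where 0.857% of all genes passed in that direction. Over all the settings tried its adjusted p ran from 0.0195 to 0.987. Among the exosome libraries both genes were lowest in replicate 2 and higher in replicates 1 and 3. Against the controls, CYP1A1 lay below all of them in replicates 1 and 3, and NQO1 above all of them.

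PTGS2, the inducible cyclooxygenase, was known to be lower from earlier results. It was at 323, 383 and 362 FPKM in control replicates 1, 2 and 3, and at 208, 293 and 214 in the exosome libraries. The groups did not overlap, and exosome replicate 2 was nearest to the controls (log2 difference -0.59, limma adjusted p = 0.234). Without that library it passed at an adjusted p of 0.00856 in limma, where 1.88% of all genes passed as lower, and its adjusted p ran up to 0.780 over the settings tried. NQO1 and PTGS2 were the 2 rows of the list to pass in that setting.

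NFE2L2 encodes NRF2, the oxidative stress factor whose gene the receptor also induces. It was at 107, 115 and 114 FPKM in control replicates 1, 2 and 3 and at 93.6, 94.9 and 95.6 in the exosome libraries, a narrow but complete separation (log2 difference -0.24, limma adjusted p = 0.189). TMEM45B, a membrane protein, was at 22.0 ± 2.56 and 15.9 ± 1.30 FPKM (limma adjusted p = 0.219). SCIN, an actin-severing protein, was at 8.27 ± 0.337 and 7.10 ± 0.474 FPKM (limma adjusted p = 0.346). The 2 higher rows at a limma p under 0.05 before adjustment were STC2 and ITPR1. STC2, a secreted glycoprotein, was at 13.0 ± 0.799 and 16.5 ± 2.27 FPKM, and ITPR1, a calcium channel, at 1.18 ± 0.0116 and 1.69 ± 0.176 FPKM (limma adjusted p = 0.306 for each). Values after ± are SD (n = 3 per group).

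**Figure D5:**
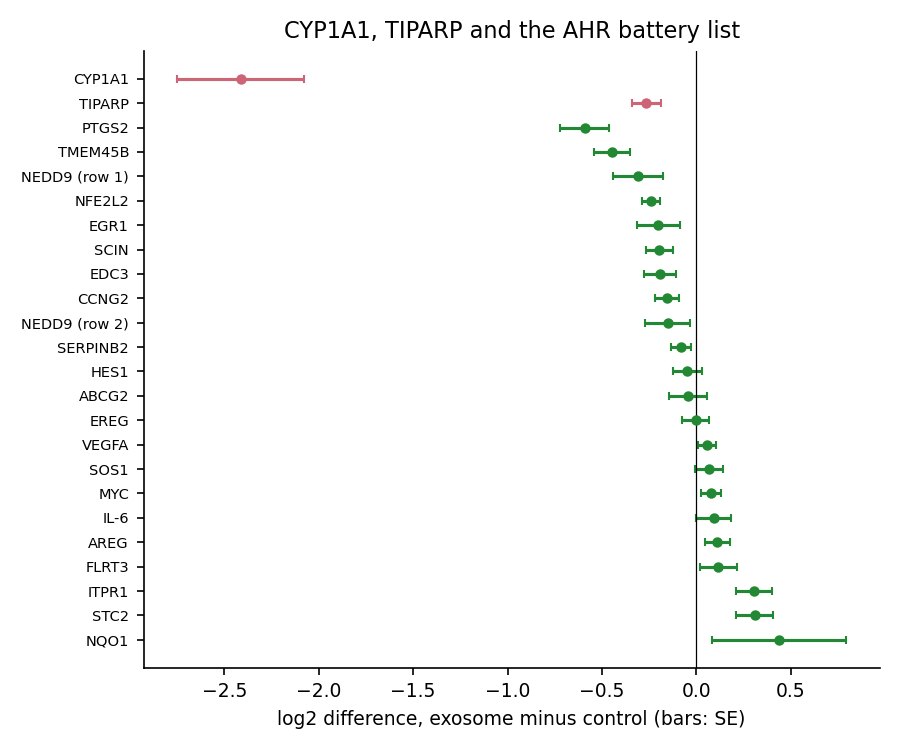
Log2 difference (exosome minus control) with its SE for CYP1A1 and TIPARP, in red, and the 22 rows of other receptor targets, in green and ordered by their difference. The green points lie from -0.59 for PTGS2 to 0.44 for NQO1, and CYP1A1 lies at -2.41, outside that range.

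Among the other P450s in the table, 12 rows of which 11 were tested, CYP24A1 came closest to CYP1A1. This enzyme inactivates vitamin D. It was at 70.3, 81.4 and 73.2 FPKM in control replicates 1, 2 and 3 and at 45.3, 34.6 and 47.1 in the exosome libraries, and like CYP1A1 it was highest in control replicate 2 and lowest in exosome replicate 2. Its log2 difference was -0.82 (limma adjusted p = 0.118), and it passed without exosome replicate 2 at -0.68 (limma adjusted p = 0.00856; up to 0.710 over the settings tried). CYP51, the lanosterol demethylase of cholesterol synthesis, was at 173, 188 and 193 FPKM without exosomes and at 104, 169 and 115 with them, so that exosome replicate 2 lay nearest to the controls. Its log2 difference was -0.54 (limma adjusted p = 0.290), and it passed without that library at -0.75 (limma adjusted p = 0.00719; up to 0.808 over the settings tried). CYP2U1 was higher, at 1.54 ± 0.0852 and 2.01 ± 0.223 FPKM (limma adjusted p = 0.370). CYP24A1 and CYP51 were the 2 rows of the family to pass in that setting, where 1.88% of all genes passed as lower. Over the tested rows of the family without CYP1A1, 6 were higher and 5 lower, with a median log2 difference of 0.04. Before adjustment, at a limma p under 0.05, 1 row was higher and 2 were lower, against 5.06% and 7.5% of all genes tested.

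Electron donors of the P450s and enzymes of haem, the cofactor they carry, had 16 rows, of which 0 passed an adjusted p of 0.05 in limma. The log2 difference was below 0 in 13 rows and above it in 3, with a median of -0.07, where 5508 of all 10846 genes tested lay below 0. Before adjustment, at p under 0.05, 4 rows were lower and 0 higher, against 7.5% and 5.06% of all genes tested. CYB5R3, the reductase of cytochrome b5, was at 88.9 ± 1.72 and 79.8 ± 1.67 FPKM, and PPOX, a late enzyme of haem synthesis, at 40.9 ± 1.89 and 36.0 ± 2.83 FPKM (limma adjusted p = 0.284 and 0.353). CYB5B and HMOX2, which degrades haem, had log2 differences of -0.13 and -0.12. For POR, the main electron donor of CYP1A1, no row was found by name or identifier.

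TIPARP belongs to the family of ADP-ribosyl transferases, of which 16 rows with their hydrolases were tested. Their median log2 difference was 0.01, with 10 higher and 6 lower and 0 past an adjusted p of 0.05 in limma. Before adjustment, at p under 0.05, 1 row was higher and 0 lower, against 5.06% and 7.5% of all genes tested. PARP1, the DNA damage sensor, was at 21.0 ± 0.513 and 23.7 ± 1.88 FPKM (limma adjusted p = 0.389), and PARP12, which like TIPARP adds single ADP-ribose units, at 6.71 ± 0.258 and 5.89 ± 0.606 FPKM (limma adjusted p = 0.461). PARP3 was at 23.9 ± 1.06 and 20.8 ± 2.74 FPKM, and MACROD1, which removes ADP-ribose, at 33.6 ± 0.322 and 31.0 ± 2.06 FPKM. TIPARP, at a log2 difference of -0.27, lay below the lowest of these rows, PARP3 at -0.20.

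Enzymes and carriers that supply the receptor with tryptophan products were mostly without rows: 5 rows of 4 genes were found, and IDO1, TDO2, KYNU and IL4I1 had none. SLC3A2, the heavy chain of an amino acid exchanger, was at 113, 105 and 102 FPKM without exosomes and at 122, 112 and 134 with them (log2 difference 0.20, limma adjusted p = 0.347), the 1 row of the 5 at a limma p under 0.05 before adjustment, with 0 after it, where 5.06% of all genes tested were higher at that p. The 2 rows of WARS, the tryptophanyl-tRNA synthetase, had log2 differences of -0.19 and -0.05, and CCBL2, a kynurenine transaminase, 0.07. Among the receptor's relatives with a PAS domain, 9 rows of 8 genes, 0 passed limma's test after adjustment, and 2 were lower at p under 0.05 before it, set against 7.5% of all genes tested. NPAS2, a circadian factor, was at 5.73 ± 0.312 and 4.32 ± 0.288 FPKM (limma adjusted p = 0.234). EPAS1, a hypoxia factor that also pairs with ARNT, was at 30.3, 34.5 and 32.8 FPKM without exosomes and at 23.5, 32.7 and 22.8 with them (log2 difference -0.31, limma adjusted p = 0.384). It was the 1 row of these relatives to pass without exosome replicate 2, at -0.47 (limma adjusted p = 0.0229; up to 0.822 over the settings tried), where 1.88% of all genes passed as lower. HIF1A and NPAS1 had log2 differences of -0.07 and 0.19. Of 13 rows of other receptors that respond to foreign compounds and lipids, and their partners, 11 were lower and 2 higher. Of all 10846 genes tested, 5508 lay below 0. Of the 13 rows 0 passed the adjusted threshold in limma, and 1 was lower at p under 0.05 before adjustment, where 7.5% of all genes tested were. That was PPARD, a fatty acid receptor, at 21.5 ± 0.646 and 17.8 ± 0.831 FPKM (limma adjusted p = 0.234). ESR1, the oestrogen receptor, was at 2.16 ± 0.139 and 1.76 ± 0.2001 FPKM (limma adjusted p = 0.432), and RXRB and a row of NFE2L1 had log2 differences of -0.18 and -0.14.

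The genes whose levels followed CYP1A1 most closely over the 6 libraries were PRKD2, a protein kinase, TRMT1L, a tRNA methyltransferase relative, ANKH, a membrane protein of pyrophosphate export, CASTOR2, of an arginine sensor family, and TMEM63B, an ion channel. Their Pearson's r on log2(FPKM + 1) ran from 0.983 to 0.992, and from 0.858 to 0.944 for the deviations from group means. These values describe the 5 highest of 8547 genes, 38 of which were over 0.95, and with 6 libraries in 2 groups they carry no p. All 5 were lowest in exosome replicate 2, as CYP1A1 was. They were picked for following CYP1A1 over these same libraries, and CYP1A1 was chosen as lower with exosomes. Their lower exosome levels and their shared lowest library follow largely from that choice. Nothing is therefore read from these traits or from the tests given for ANKH. ANKH had the widest difference of them, at 158, 209 and 162 FPKM in control replicates 1, 2 and 3 and 104, 80.9 and 90.8 in the exosome libraries (log2 difference -0.93, limma adjusted p = 0.118). It passed without exosome replicate 2 at -0.84 (limma adjusted p = 0.0279; up to 0.710 over the settings tried), where 1.88% of all genes passed as lower. PRKD2 was at 22.4 ± 0.783 and 20.0 ± 0.402 FPKM.

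The genes most like TIPARP were EXT1, a heparan sulphate polymerase, SEPN1, a selenoprotein, PXYLP1, a xylose phosphatase, and 2 rows without a symbol, with r from 0.974 to 0.990 over the 6 libraries and from 0.916 to 0.976 for the deviations. EXT1 was at 142 ± 8.91 and 124 ± 1.43 FPKM and SEPN1 at 82.3 ± 3.18 and 75.1 ± 1.35 FPKM (SD, n = 3 per group; limma adjusted p = 0.267 and 0.346). Both were picked for following TIPARP, which was chosen as lower with exosomes, so nothing is read from these tests. The lists of 5 genes for CYP1A1 and for TIPARP had no gene in common.

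The 5 genes that followed CYP1A1 in rank differed in the order of their exosome libraries. GNG7 was at 1.69, 1.60 and 3.29 FPKM in exosome replicates 1, 2 and 3, and SMIM5, a small membrane protein, at 4.54, 2.18 and 6.55. In both, as in CYP1A1, replicate 2 was the farthest from the controls. INSIG1, the sterol-responsive anchor of SREBP, was at 46.3, 64.4 and 66.4 FPKM in control replicates 1, 2 and 3 and at 17.9, 54.4 and 20.6 in the exosome libraries. FADS2 was at 23.5, 31.7 and 33.6 FPKM without exosomes and at 6.22, 24.6 and 8.02 with them. In these 2 genes, and in SYNE4, a nuclear envelope protein, exosome replicate 2 was the nearest to the controls. The CYP1A1 difference was -2.10 without exosome replicate 2, and that of INSIG1 was -1.56 against -1.07 with it. INSIG1 passed limma's test only in the settings without exosome replicate 2, and its adjusted p ran from 0.00856 to 0.808 over the settings tried. With that library alone left out, 1.88% of all genes passed as lower.

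Genes beside CYP1A1 and TIPARP on their chromosomes had small differences. Of the 5 protein-coding neighbours on each side of CYP1A1, 6 of 10 had rows, with log2 differences from -0.19 to -0.05. The next gene on the higher side, EDC3, which is also on the list of receptor targets, began 19537 bp away and was at 15.7 ± 0.802 and 13.6 ± 1.54 FPKM. CSK, a kinase on the other side, was at 31.7 ± 1.48 and 29.2 ± 1.53 FPKM. Around TIPARP 4 of 10 neighbours had rows, with log2 differences from -0.03 to 0.15, among them SSR3 at 202 ± 9.04 and 209 ± 5.33 FPKM and CCNL1 at 32.7 ± 1.07 and 33.2 ± 1.31 FPKM (SD, n = 3 per group).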

How the data were processed

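RNA of 6 cultures was sequenced from stranded mRNA libraries (labels' protocols). The submitters' processing notes name bcl2fastq 1.8.4, TopHat and Cufflinks and the assembly Sscrofa11.1; for TopHat and Cufflinks the version, and likewise the annotation release, were not given in the sources used. No header states a unit, so the deposited values are treated as FPKM, from the authors' tool and the values. No value was 0 (lowest 0.0882), so a gene silent in any library could not be examined. Without counts the depth, and thus counting error, is unknown.

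Columns were matched to samples by title. limma 3.58.1 in R 4.3.3 was fitted to log2(FPKM + 1) of the 10846 genes whose mean reached 1 FPKM (two-sided, intensity trend, residual degrees of freedom 4), with Benjamini-Hochberg adjustment over all of them and a threshold of 0.05; the code was tested on simulated data. The members and lists were chosen with earlier results of these data known. The lists held 169 symbols, of which 110 were found, 6 of them through the identifier. Named genes were the receptor's core genes, the 4 smallest p of each list (6 for the receptor and target lists), the 5 genes most like each member with a mean of at least 5 FPKM, the genes next to each member in the order of differences, and 3 markers per cell type; not all are printed, and the separate values of 1 core gene are not reported here. The chromosomal neighbours were added outside that rule. Gene positions are RefSeq's for Sscrofa11.1. Pseudocount, filter, scaling, variance model, a replicate block and left-out libraries were varied. Figures used Python 3.11.15 and matplotlib 3.10.9.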

Additional observations from a re-analysis of the deposited data

How the results depend on the processing

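CYP1A1 stayed lower under all 17 alternatives, with log2 differences from -2.81 to -1.80, and TIPARP from -0.359 to -0.184; for both the end nearest to 0 came without replicate 2 of both groups. With single libraries left out the ranges were -2.70 to -2.10 and -0.333 to -0.190. The control SD on the log2 scale then ran from 0.398 to 0.827 for CYP1A1 and from 0.0831 to 0.204 for TIPARP. The r of their deviations ran from -0.135 to 0.770, and was 0.711 and -0.521 without replicates 1 and 2 of both groups.

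With single libraries left out, the genes past an adjusted p of 0.05 ran from 0 to 297 (1 without control replicate 3, 297 without exosome replicate 2), those at an unadjusted p under 0.05 from 802 to 2392, and those whose groups lay apart from 2653 to 4438, a count that fewer libraries raise by construction. Without replicates 1, 2 and 3 of both groups in turn, 0, 58 and 1 genes passed, 651 and 886 lay under an unadjusted 0.05 without replicates 1 and 3, and the groups lay apart in 4035, 5190 and 4456.

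The median of the target list lay from -0.095 to -0.010 with single libraries left out and was -0.11 without replicate 3 of both groups. That of the receptor list ran from -0.015 to 0.027, turning negative without control replicate 1 (-0.010), exosome replicate 1 (-0.0068) or exosome replicate 2 (-0.015), and was -0.031 without replicate 1 of both groups; the cause was not tested. Of the 70 other named genes, 4 changed sign somewhere. With single libraries left out AHR ran from -0.00466 to 0.220 and CD14 from -0.177 to 0.116. AHR was at -0.0200 without replicate 3 of both groups, CD68 at 0.0153 without replicate 2 of both, CD14 at 0.202 without replicate 1 of both, and KRT19 at 0.0268 with quantile normalization. Without exosome replicate 2, 14 of the 70 passed, where 0.857% of all genes passed as higher and 1.88% as lower; many of the 70 were named for a small p or a low rank. Of these genes 6 passed in another alternative, that without replicate 2 of both groups.

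With the replicate block 0 genes passed, and CYP1A1 and TIPARP stayed at -2.41 and -0.266. Same-numbered libraries had deviations correlated at 0.161, 0.144 and -0.0700, and differently numbered ones at -0.271 to 0.169. The labels state no pairing, and these values do not settle whether the numbers pair the libraries.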
